A study of Ctenopharyngodon idella with 15 samples.

Results

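The genes described here had a higher mean log2(FPKM + 1) in the gills of symptomatic than of asymptomatic grass carp at both salinities tested. FPKM is the number of sequenced fragments, scaled by the length of the transcript and by the total of the library. A gene was taken when it was above 0 FPKM in all 15 fish, had a mean of at least 1 FPKM, and its mean log2(FPKM + 1) was higher by a fold of at least 1.5 (a log2 difference of 0.58 to 2 decimals) in symptomatic than in asymptomatic fish at 3‰ and again at 6‰. Genes were left out when the 3 asymptomatic fish at 6‰ lay below all 12 other fish, or when all 12 treated fish lay on 1 side of the 3 control fish. Of 40116 gene ids, 20971 met the demands on level. The difference at 3‰ was reached by 706 of these, that at 6‰ by 919, and both by 208. The clause on asymptomatic fish at 6‰ then removed 7 ids and the clause on control fish 4, which left 197 genes, 160 with an id that gives a genome locus and 37 numbered as new genes. The limit of 200 genes was therefore not reached.

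Gill RNA of grass carp (Ctenopharyngodon idella) of 3 months of age was sequenced after 30 days in water with sea salt, with 1 library per fish and 3 fish in each of 5 groups. The groups were 3‰-treated symptomatic, 3‰-treated asymptomatic, 6‰-treated symptomatic, 6‰-treated asymptomatic and untreated control fish (con). The labels call symptomatic fish injured and the others healthy, and write the salt in % where the methods write ‰. Nothing in the sources states a strain, a sex or a shared tank, so the spread between fish may be in part a spread between tanks. Fish at different salinities cannot share water, so salinity and tank cannot be told apart. A symptom was not set by the experimenter but was seen in a fish. The paper describes lost scales, fin ulcers and bleeding at 3‰, and slight symptoms, lost scales and fin ulcers, at 6‰. In its sections the lamellae, the thin folds of the gill, were normal in 6‰-treated asymptomatic fish. At 3‰ it reports lamellae stuck together, above all in symptomatic fish. Symptomatic and asymptomatic may therefore not mean the same state at both salinities. No gene that defines gill tissue is paired with an id in the sources used here, so the tissue could not be checked against its markers.

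The gill is a large surface between fish and water, and it carries immune cells as well as the cells that move salt. Damage to such a surface is met by cytokines, which are signals between cells, by chemokines, which direct the movement of leukocytes, and by proteases that cytotoxic and granular leukocytes store. Type 2 cytokines such as interleukin-4 and interleukin-13 are known from mammals for their part in mucosal defence and repair, and interferon-γ for the activation of macrophages and of interferon-inducible genes. In a whole gill, more cells of a type and more RNA per cell cannot be told apart.

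Summed FPKM ranged from 759044 to 852270 over the 15 fish, and 28848 to 30345 ids were above 0. The number of reads behind a value is not known, since the files hold FPKM alone. The libraries of 3‰-treated symptomatic replicate 1 and 6‰-treated symptomatic replicate 1 were closer to each other than any of the other libraries (105 pairs), at a median distance per id of 0.136 on the log2(FPKM + 1) scale, and the next closest pair, both asymptomatic at 6‰, were 0.172 apart. The pair after these was 6‰-treated symptomatic replicate 1 with 3‰-treated asymptomatic replicate 1, at 0.1795. The farthest pair was 3‰-treated symptomatic replicate 1 with 6‰-treated symptomatic replicate 3, at 0.545. In many of the genes below, the library labelled 6‰-treated symptomatic replicate 1 was at the level of 3‰-treated or control fish and apart from the other 5 fish at 6‰. Nothing in the sources allows that label to be checked, so it was used as given. Each difference at 6‰ and the contrast of salinities rest on it and are uncertain to that extent. Whether the label, a batch, a tank or the state of the fish lies behind the likeness was not tested. Without this fish the difference at 6‰ was under the threshold of the rule in 68 of the 197 genes and below 0 in 11, and without 3‰-treated symptomatic replicate 1 that at 3‰ was under the threshold in 52 and below 0 in 1.

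The difference that chose the genes had a median of 0.89 at 3‰, with a range of 0.59 to 4.11, and a median of 0.94 at 6‰, with a range of 0.59 to 3.45. Over the 20971 ids that met the demands on level, the medians were -0.08 and -0.04. These values are a description with no test, since the genes were chosen by them. The larger difference was at 3‰ in 106 genes and at 6‰ in 91 genes. Both differences were at least 1 in 51 genes. A difference over 2 was more frequent at 3‰ (20 genes) than at 6‰ (7 genes). Just inside the threshold lay CI01000020_04818050_04818245, with differences of 0.5851 at 3‰ and 1.05 at 6‰, and CI01000006_08225810_08227168, with 0.5858 and 0.860. Just outside lay CI01000012_10934571_10937915, with 0.843 at 3‰ and 0.5848 at 6‰, and CI01000304_10541900_10546151, with 0.624 and 0.5830. Among the ids that a clause removed were C-type lysozyme (1.77 at 3‰ and 0.70 at 6‰), for its order against control fish, and low choriolytic enzyme-like (0.88 and 1.83) and mast cell protease 8-like (0.84 and 1.04), for the asymptomatic fish at 6‰.

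**Figure D1:**
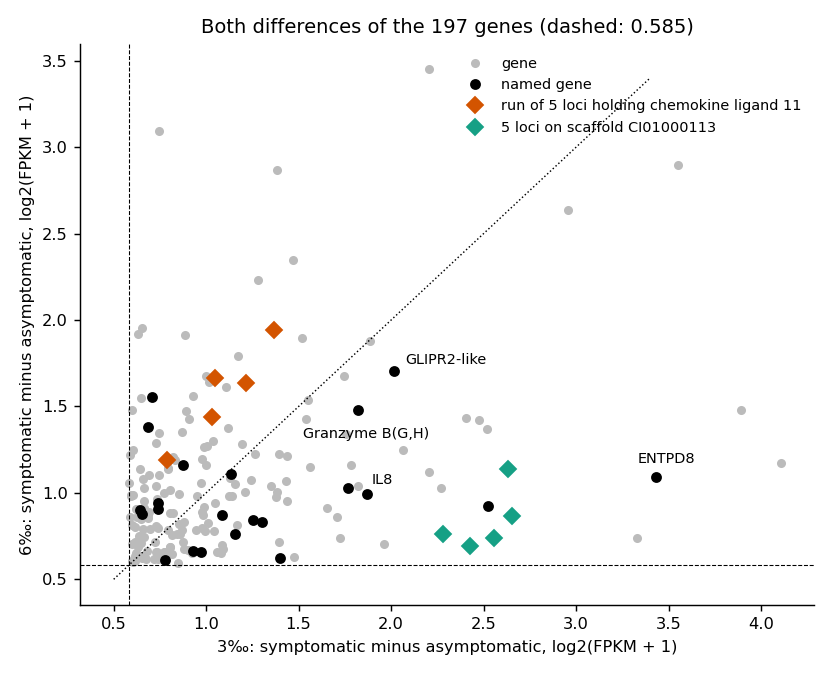
Difference between symptomatic and asymptomatic fish on the log2(FPKM + 1) scale at 3‰ (horizontal axis) and at 6‰ (vertical axis), 1 point for each of the 197 genes, with dashed lines at the threshold of the rule and a dotted line where both are equal. The 5 loci on CI01000113 lie far below the dotted line and the 5 loci of the run with chemokine ligand 11 above it.

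The mean of log2(FPKM + 1) over the 197 genes was 4.02 ± 0.38 in 3‰-treated symptomatic and 2.88 ± 0.39 in 3‰-treated asymptomatic fish, 3.66 ± 0.46 in 6‰-treated symptomatic and 2.60 ± 0.23 in 6‰-treated asymptomatic fish, and 3.04 ± 0.16 in control fish (SD over fish, n = 3 each). At 3‰ the symptomatic fish had 4.27, 4.21 and 3.58, against 3.33, 2.64 and 2.68 in asymptomatic fish. At 6‰ the symptomatic fish had 4.18, 3.49 and 3.31, against 2.33, 2.71 and 2.75 in asymptomatic fish. The highest fish of the 6‰-treated symptomatic group was thus close to the 2 highest fish of the 3‰-treated symptomatic group, and the other 2 were lower. Of the 3 symptomatic fish at 6‰, replicate 1 had the highest value in 115 genes, replicate 2 in 41 and replicate 3 in 41. At 3‰ the highest was replicate 1 in 91 genes, replicate 2 in 71 and replicate 3 in 35. Replicate 1 of the 3‰-treated asymptomatic fish was the highest of its group in 130 genes. The fish with the highest value of all 15 was symptomatic at 3‰ in 120 genes, symptomatic at 6‰ in 57, asymptomatic in 12 and a control in 8. The rule chose genes with high symptomatic fish, so these means and counts follow in part from it and nothing is read from them. No share over all ids is given for the counts.

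**Figure D2:**
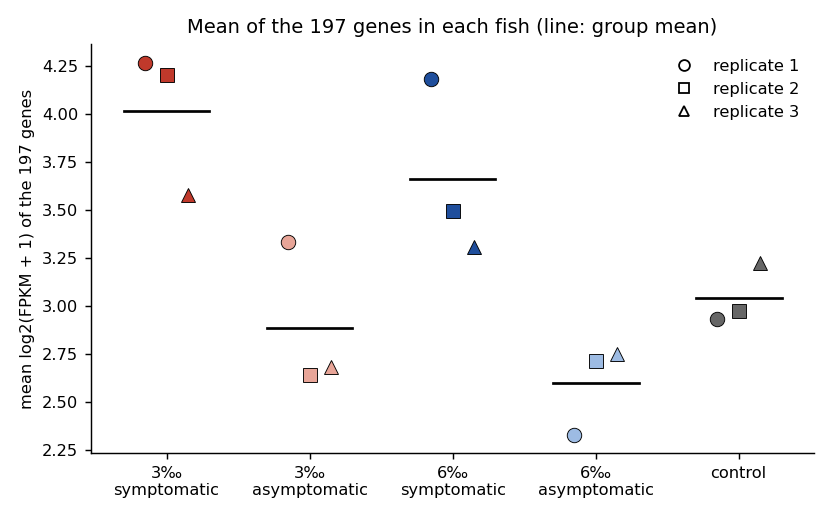
Mean log2(FPKM + 1) over the 197 genes in each of the 15 fish (1 point per fish, with a line at the mean of the group). Symptomatic fish lie at 3.31 to 4.27 and asymptomatic fish at 2.33 to 3.33, so that the lowest symptomatic fish (6‰, replicate 3) lies just under the highest asymptomatic fish (3‰, replicate 1). The genes were chosen by the difference between these groups.

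The median SD over 3 fish was 0.62 for the 197 genes and 0.27 for all ids that met the demands on level for the 3‰-treated fish with symptoms, 0.66 and 0.33 for the 6‰-treated fish with symptoms, and 0.42 and 0.25 for control fish. All 3 symptomatic fish lay above all 3 asymptomatic fish in 82 of the 197 genes at 3‰ (41.6%, against 8.38% of all ids that met the demands on level) and in 95 at 6‰ (48.2%, against 7.68%). Both held in 32 genes (16.2%, against 1.76%), and in 16 genes all 6 symptomatic fish lay above all 6 asymptomatic fish (8.12%, against 0.854%). The rule used these same values, so nothing is read from the shares. Without 6‰-treated symptomatic replicate 1, 129 of the 197 genes still met both differences, and without replicate 1 of both symptomatic groups 95 did. Leaving out any other single treated fish left 141 to 185 genes, and 36 genes met both differences whichever fish was left out. Control fish do not enter these differences.

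Names were taken from the ids that the paper pairs with a gene name, which gave 23 of the 197 genes a name. The study had picked those genes for display, some from these same libraries and some from libraries of infected fish. The share of immune genes among them therefore says nothing of the other 174. By role, 8 of the 23 were cytokines or chemokines, 5 proteases, 3 interferon-inducible GTPases, 2 immunoglobulin chains and 5 of other kinds. None of the 30 NLR family ids with enough FPKM was among the 197 genes, nor any of 8 claudins, 7 caspases or PYCARD, 5 semaphorins and 3 hypoxia-inducible factors. Since 0.939% of the ids that met the demands on level are among the genes, such counts of 0 are near that share and say nothing of these families. The difference was larger at 3‰ in 15 of the 23 and larger at 6‰ in 8. The symptomatic fish lay above the asymptomatic fish without overlap at 3‰ in 13 and at 6‰ in 5, and in none of the 23 at both. These are 56.5% at 3‰ and 21.7% at 6‰, beside 41.6% and 48.2% of the 197 genes and 8.38% and 7.68% of all ids that met the demands on level, and the rule used the same values. Without 6‰-treated symptomatic replicate 1, 12 of the 23 were under the threshold at 6‰ and 7 below 0. Without 3‰-treated symptomatic replicate 1, 8 were under the threshold at 3‰, none of them below 0, and these 8 included both ids of chemokine ligand 11 (0.27 and 0.17) and chemokine ligand 20b (0.35).

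Both fish homologs of the mammalian type 2 cytokines IL-4 and IL-13 were among the genes. Interleukin-4/13A (CI01000040_03226639_03227469) had 96.3, 38.3 and 82.04 FPKM in 3‰-treated symptomatic fish, against 20.6, 21.2 and 35.0 FPKM in 3‰-treated asymptomatic fish. At 6‰ it had 61.6, 5.85 and 5.18 FPKM in symptomatic fish, against 12.96, 5.50 and 6.97 FPKM in asymptomatic fish. Control fish had 57.2, 61.6 and 20.4 FPKM of interleukin-4/13A. The groups did not overlap at 3‰, while at 6‰ only replicate 1 was high among symptomatic fish and the other 2 lay within or below the asymptomatic fish. The differences were 1.40 at 3‰ and 0.62 at 6‰, and the second of these was -0.46 without replicate 1. Interleukin-4/13B (CI01000000_17729584_17730495) had 15.4, 7.56 and 13.3 FPKM in 3‰-treated symptomatic fish, against 4.66, 5.25 and 4.36 FPKM in 3‰-treated asymptomatic fish. At 6‰ it was at 10.99, 2.54 and 1.47 FPKM in symptomatic fish, against 0.614, 0.989 and 2.24 FPKM in asymptomatic fish. Control fish, with 9.44, 7.57 and 4.86 FPKM, lay above every asymptomatic fish at 6‰ and overlapped with the symptomatic fish at 3‰. The differences of interleukin-4/13B were 1.14 at 3‰ and 1.11 at 6‰, the second of which was 0.44 without replicate 1.

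IL8, the chemokine that attracts neutrophils, had 2 ids. The first (CI01159682_00000241_00000722) had 60.9, 209 and 49.5 FPKM in 3‰-treated symptomatic fish, against 22.7, 22.99 and 22.8 FPKM in 3‰-treated asymptomatic fish. At 6‰ the values were 42.6, 44.2 and 18.0 FPKM in symptomatic fish, against 9.99, 18.7 and 21.1 FPKM in asymptomatic fish. Control fish had 65.1, 39.3 and 27.8 FPKM of this IL8 id, a range that overlaps with both symptomatic groups. The differences were 1.87 at 3‰ and 0.99 at 6‰. The other IL8 id (CI01000300_03901275_03902800) was at 20.8, 76.9 and 21.7 FPKM in 3‰-treated symptomatic fish, against 18.9, 14.4 and 15.5 FPKM in 3‰-treated asymptomatic fish, with differences of 0.97 at 3‰ and 0.66 at 6‰. In both ids 3‰-treated symptomatic replicate 2 was the highest of the 15 fish. Reads of near-identical copies may be split between such ids, since how reads were counted is not stated.

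The chemokines named chemokine ligand 11 and chemokine ligand 20b differed more at 6‰ than at 3‰. Chemokine ligand 11 (CI01000039_04078795_04079273) had 188, 172 and 112 FPKM in 6‰-treated symptomatic fish, against 51.8, 73.8 and 78.7 FPKM in 6‰-treated asymptomatic fish, with no overlap. At 3‰ it had 184, 114 and 33.2 FPKM in symptomatic fish, against 114, 32.1 and 36.1 FPKM in asymptomatic fish, which overlap. Control fish had 70.0, 83.7 and 122 FPKM, in the range of the treated fish. The differences were 0.79 at 3‰ and 1.19 at 6‰. The other id of that name (CI01000504_00025193_00026393) had 98.1, 87.2 and 68.8 FPKM in 6‰-treated symptomatic fish, against 31.1, 58.0 and 48.2 FPKM in 6‰-treated asymptomatic fish, and differences of 0.74 at 3‰ and 0.90 at 6‰. Chemokine ligand 20b (CI01000039_06199595_06200036) had 15.5, 18.97 and 7.41 FPKM in 6‰-treated symptomatic fish, against 2.56, 6.54 and 4.83 FPKM in 6‰-treated asymptomatic fish. Its differences were 0.69 at 3‰ and 1.38 at 6‰, and at 3‰ replicate 3 of the symptomatic fish, at 1.13 FPKM, was the lowest of all 15 fish.

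Interferon-γ, the cytokine of activated T and NK cells, was present as IFNγ 2a (CI01000020_04273916_04275725). It had 15.0, 14.1 and 5.86 FPKM in 3‰-treated symptomatic fish, against 7.33, 4.90 and 4.497 FPKM in 3‰-treated asymptomatic fish. At 6‰ it had 11.96, 13.1 and 9.98 FPKM in symptomatic fish, against 3.08, 4.78 and 6.65 FPKM in asymptomatic fish, with no overlap. Control fish had 5.68, 8.28 and 11.8 FPKM, a range that overlaps with each treated group. IFNγ 2a had differences of 0.87 at 3‰ and 1.16 at 6‰. Among interferon-inducible GTPases, Mx3-like (CI01000055_06191356_06221464), of the dynamin-like Mx family that acts against viruses, had 148, 139 and 40.98 FPKM in 3‰-treated symptomatic fish, against 86.1, 43.1 and 57.8 FPKM in 3‰-treated asymptomatic fish. At 6‰ Mx3-like had 147, 150 and 71.3 FPKM in symptomatic fish, against 44.6, 65.1 and 84.97 FPKM in asymptomatic fish. In both symptomatic groups replicates 1 and 2 were alike and high, while replicate 3 lay below all asymptomatic fish at 3‰ and within them at 6‰. GVINP1, named after a very large interferon-inducible GTPase, had 2 ids, with differences of 0.93 at 3‰ and 0.66 at 6‰ (CI01000428_00049592_00067270) and of 0.78 at 3‰ and 0.61 at 6‰ (CI01085964_00001322_00005342). The difference of the first at 6‰ was -0.04 without 6‰-treated symptomatic replicate 1, and that of the second 0.60. In the first of them the fish ranged from 0.0864 to 12.1 FPKM within the symptomatic groups alone.

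Granzymes are serine proteases that cytotoxic lymphocytes release into target cells. Granzyme B(G,H) (CI01000030_03060378_03062683) had 36.4, 21.1 and 23.6 FPKM in 3‰-treated symptomatic fish, against 7.46, 9.19 and 4.33 FPKM in 3‰-treated asymptomatic fish. At 6‰ it was at 28.4, 9.05 and 3.18 FPKM in symptomatic fish, against 2.51, 2.76 and 3.33 FPKM in asymptomatic fish. Control fish had 4.24, 1.28 and 3.79 FPKM, below each 3‰-treated fish. The differences were 1.82 at 3‰ and 1.48 at 6‰, or 0.75 at 6‰ without replicate 1. Another id of that name (CI01000030_03106589_03108355), at 11.6 to 79.2 FPKM over all fish, is not among the genes. It differed by 0.29 at 3‰ and 0.41 at 6‰. Granzyme-like protein 1 (CI01001325_00000309_00000862) had 240, 167 and 177 FPKM in 3‰-treated symptomatic fish, against 84.1, 133 and 40.8 FPKM in 3‰-treated asymptomatic fish. At 6‰ the values were 158, 18.6 and 6.98 FPKM in symptomatic fish, against 13.2, 8.55 and 31.5 FPKM in asymptomatic fish, so that replicate 1 alone was above the asymptomatic fish. Duodenase-1-like (CI01000030_03066708_03068158), named after a serine protease of cattle, lies next to Granzyme B(G,H) and had 26.95, 4.87 and 0.603 FPKM in 6‰-treated symptomatic fish, against 2.43, 2.68 and 2.42 FPKM in 6‰-treated asymptomatic fish. Its differences were 1.09 at 3‰ and 0.87 at 6‰. Without replicate 1 the difference at 6‰ turned sign in both, to -0.19 in duodenase-1-like and to -0.39, against 0.83 with all fish, in Granzyme-like protein 1.

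Calpain-2 catalytic subunit-like protein (CI01000030_06499375_06510887), named after a calcium-dependent cysteine protease, had 110, 138 and 147 FPKM in 3‰-treated symptomatic fish, against 73.1, 75.6 and 28.8 FPKM in 3‰-treated asymptomatic fish. At 6‰ it had 92.5, 15.5 and 11.8 FPKM in symptomatic fish, against 14.8, 15.1 and 12.4 FPKM in asymptomatic fish. Control fish had 94.7, 104 and 90.2 FPKM. Replicate 1 was the single high fish at 6‰, at the level of control fish, and the other 5 lay between 11.8 and 15.5 FPKM. The difference at 6‰, 0.84 with all fish, was -0.06 without replicate 1. Matrix metalloproteinase-19-like (CI01000155_00031178_00032961), of a family that cuts extracellular matrix, had 3.87, 7.79 and 10.9 FPKM in 6‰-treated symptomatic fish, against 5.54, 1.11 and 3.33 FPKM in 6‰-treated asymptomatic fish. At 3‰ it had 2.42, 6.24 and 8.30 FPKM in symptomatic fish, against 0.644, 1.61 and 0.361 FPKM in asymptomatic fish. Control fish were between 0.254 and 0.982 FPKM, below every symptomatic fish. Its differences were 1.77 at 3‰ and 1.03 at 6‰.

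Some of the widest differences were in genes of other kinds. ENTPD8, an enzyme that breaks down nucleotides outside the cell, had 2 ids. The first (CI01000230_00438257_00447153) had 96.8, 41.99 and 50.6 FPKM in 3‰-treated symptomatic fish, against 7.83, 5.36 and 2.06 FPKM in 3‰-treated asymptomatic fish. At 6‰ it was at 58.1, 2.35 and 6.999 FPKM in symptomatic fish, against 6.00, 7.07 and 1.89 FPKM in asymptomatic fish. Control fish had 35.1, 19.4 and 22.9 FPKM, above every asymptomatic fish. The differences were 3.43 at 3‰ and 1.09 at 6‰, and in the other ENTPD8 id (CI01074902_00000038_00000655) 2.53 and 0.92. Without 6‰-treated symptomatic replicate 1 both turned sign at 6‰, to -0.08 in the first ENTPD8 id and -0.17 in the other. GLIPR2-like (CI01000275_00123293_00123962), related to a protein of the Golgi apparatus in mammals, had 484, 323 and 628 FPKM in 3‰-treated symptomatic fish, against 217, 145 and 45.9 FPKM in 3‰-treated asymptomatic fish. At 6‰ the values were 314, 13.2 and 5.46 FPKM in symptomatic fish, against 9.16, 8.01 and 8.10 FPKM in asymptomatic fish. Control fish had 250, 307 and 190 FPKM of GLIPR2-like. Its differences were 2.01 at 3‰ and 1.71 at 6‰, the second of which was 0.03 without replicate 1. PSCA-like (CI01064543_00000646_00001629), named after a small protein anchored on the cell surface, differed by 0.74 at 3‰ and 0.94 at 6‰, and its values ran from 1.65 to 326 FPKM within 6‰-treated symptomatic fish alone. Ribonuclease inhibitor-like (CI01101500_00002765_00002938) had 15.0, 3.94 and 18.7 FPKM in 6‰-treated symptomatic fish, against 6.48, 4.47 and 6.83 FPKM in 6‰-treated asymptomatic fish, and control fish were at 0.394 to 4.89 FPKM. Its differences were 1.15 at 3‰ and 0.76 at 6‰.

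**Figure D3:**
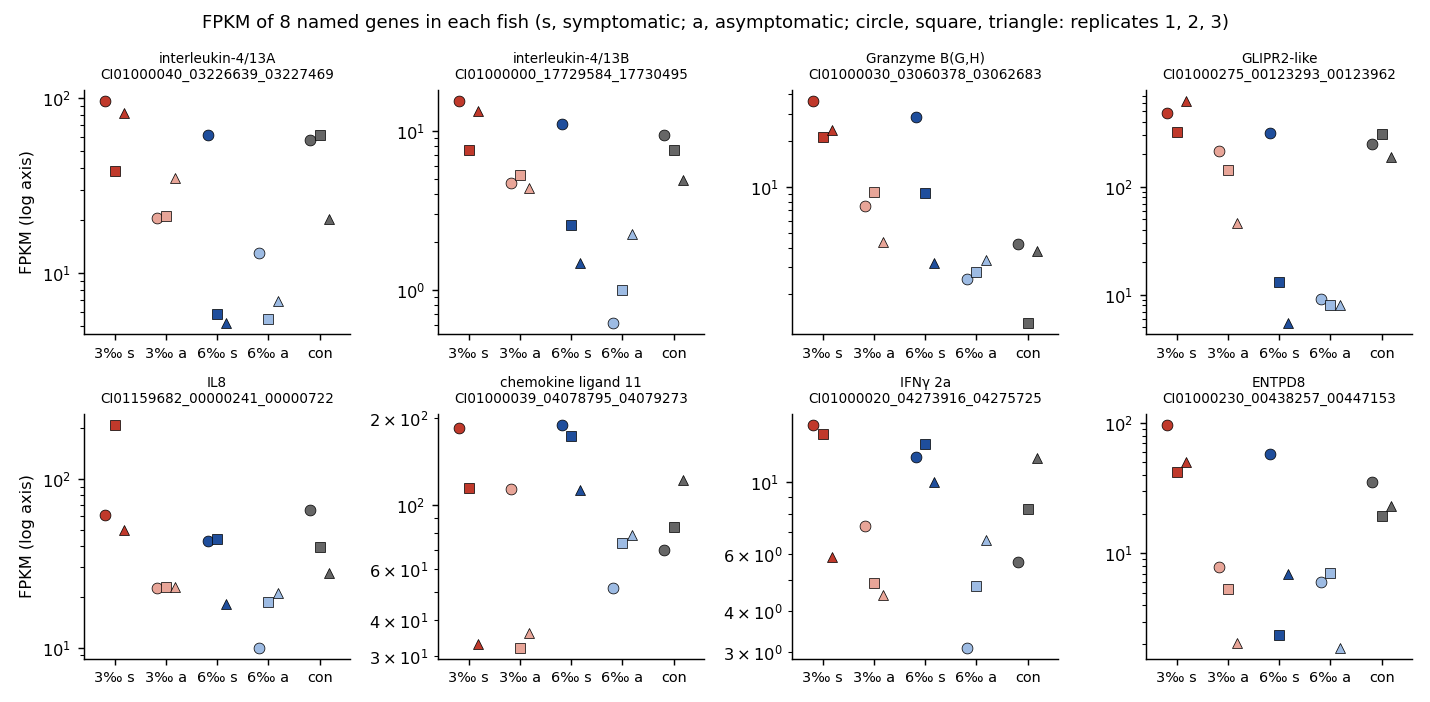
FPKM (log axis) of 8 named genes in each fish, with 3 points per group in the order 3‰ symptomatic (s), 3‰ asymptomatic (a), 6‰ symptomatic, 6‰ asymptomatic and control. In the panels of interleukin-4/13A, GLIPR2-like and ENTPD8 the circle of 6‰-treated symptomatic replicate 1 lies far above the other 5 fish at 6‰, near the highest control fish for interleukin-4/13A and GLIPR2-like and above all control fish for ENTPD8.

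Among antibody genes, Ig lambda-1 light chain (CI01000334_00016497_00019305) had 10.8, 11.7 and 8.20 FPKM in 6‰-treated symptomatic fish, against 1.14, 6.42 and 2.43 FPKM in 6‰-treated asymptomatic fish. At 3‰ its values overlapped, with 12.2, 4.22 and 5.83 FPKM in symptomatic fish, against 10.6, 3.26 and 1.20 FPKM in asymptomatic fish. The differences were 0.71 at 3‰ and 1.55 at 6‰. The immunoglobulin heavy variable gene IGHV1-24 (CI01112814_00000097_00000416) differed by 0.64 at 3‰ and 0.90 at 6‰. The first of these was 0.06 without 3‰-treated symptomatic replicate 1. Of the 14 named immunoglobulin ids, 11 met the demands on level. Symptomatic fish had the higher mean in 6 of these at 3‰ and in all 11 at 6‰. Ig HY heavy chain, which did not meet the demands, differed by -1.76 at 3‰ and -0.43 at 6‰, and IgM heavy chain by -0.31 and 1.26. Summed over the 14 named immunoglobulin ids, 2 of which are among the 197 genes, FPKM ranged from 276 to 1213 in 3‰-treated symptomatic fish and from 372 to 973 in 3‰-treated asymptomatic fish, from 323 to 1887 in 6‰-treated symptomatic fish and from 202 to 648 in 6‰-treated asymptomatic fish, and from 281 to 854 in control fish. The sum of 7 ids of T and NK cells, 2 of which are among the 197 genes, ranged from 269 to 468 FPKM in 3‰-treated symptomatic and from 206 to 334 FPKM in 3‰-treated asymptomatic fish, and from 65.8 to 350 FPKM in 6‰-treated symptomatic and from 138 to 228 FPKM in 6‰-treated asymptomatic fish. The sum of 6 ids of mast cell and other granule proteases, 1 of which is among the 197 genes, ranged from 212 to 256 FPKM in 3‰-treated symptomatic and from 135 to 162 FPKM in 3‰-treated asymptomatic fish. At 6‰ that sum was 51.5 to 200 FPKM in symptomatic fish, with its highest value more than 3 times the middle one of 57.5, against 31.7 to 56.0 FPKM in asymptomatic fish. The T and NK cell list did not move together. Its member Granzyme-like protein 1 alone reached 240 FPKM, while CD4-like protein differed by -1.21 at 3‰ and -1.09 at 6‰, CD8 alpha chain by -0.40 and -0.55, FASLG by -0.76 and -0.34 and Perforin-1 by -0.18 and -0.12 (symptomatic minus asymptomatic fish). The sum of 9 claudins, of the tight junctions of epithelium, was 668 to 768 FPKM in 3‰-treated symptomatic fish, against 640 to 884 FPKM in 3‰-treated asymptomatic fish, which overlap. At 6‰ the claudin sum was 618 to 940 FPKM in symptomatic fish, against 944 to 1358 FPKM in asymptomatic fish. It was 678 to 807 FPKM in control fish. The 6‰-treated asymptomatic fish thus lay above all others, but their lowest value nearly touched the highest 6‰-treated symptomatic one. The study had displayed these claudins as lower at 3‰ than at 6‰ in these same libraries, so nothing is read from this order. None of the ids in these 4 lists was at 0 in all fish, and the part of these cell types in the differences of the 197 genes was not tested.

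Genes were ranked by the smaller of their 2 differences. The first 10 in rank held 2 with a name, GLIPR2-like and Granzyme B(G,H), while the largest difference at 3‰ (4.11, CI01000008_02639244_02640665) belonged to rank 26 and the second largest at 6‰ (3.09) to rank 106. For the other 174 of the 197 genes neither the files nor the reference table give a name. The gene of rank 1 (CI01000120_00308876_00311801) had 338, 436 and 244 FPKM in 3‰-treated symptomatic fish, against 1.61, 15.9 and 512 FPKM in 3‰-treated asymptomatic fish. At 6‰ it had 304, 374 and 235 FPKM in symptomatic fish, against 3.04, 74.0 and 215 FPKM in asymptomatic fish, and control fish had 1.75, 1.93 and 423 FPKM. All 6 symptomatic fish were high, while asymptomatic and control fish ranged over more than 2 powers of 10. The gene of rank 2 (CI01000066_00002211_00003080) had 46.5, 19.2 and 4.71 FPKM in 3‰-treated symptomatic fish, against 2.41, 0.468 and 1.35 FPKM in 3‰-treated asymptomatic fish. At 6‰ it was at 34.1, 19.3 and 1.73 FPKM in symptomatic fish, against 1.15, 1.04 and 0.845 FPKM in asymptomatic fish, with control fish at 0.502 to 1.01 FPKM. Here the 6 symptomatic fish lay above all 3 control fish and no group overlapped within a salinity. In the gene of rank 3 (CI01000029_06486658_06492567), 3‰-treated asymptomatic replicate 1, at 88.5 FPKM, was above every symptomatic fish, the 6 of which had 20.1 to 69.8 FPKM, while the other 5 asymptomatic fish had 0.402 to 3.53 FPKM. The gene of rank 7 (CI01000204_00402898_00405195) had 13.6, 18.6 and 6.82 FPKM in 6‰-treated symptomatic fish, against 3.98, 5.38 and 1.87 FPKM in 6‰-treated asymptomatic fish, and all 6 symptomatic fish lay above all 9 others. In that of rank 10 (CI01000092_03860647_03862519) the 3‰-treated symptomatic fish ranged from 0.875 to 372 FPKM, against 0.0655 to 5.34 FPKM in 3‰-treated asymptomatic fish. Of these 10 genes, 7 met both differences whichever fish was left out, as did 3 of the 23 named genes and 36 of the 197. The 10 were ranked by the size of these differences, so nothing is read from this order.

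The genes had short loci. Of the 160 genes with a locus, 82 (51.2%) had a locus under 2000 bp from start to end, against 21% of the 18541 ids with a locus that met the demands on level, and the median locus was 1895 bp, against 6160 bp. The median of mean FPKM was 7.86, against 10.7. A mean of at least 100 FPKM was found in 16 genes and of less than 5 FPKM in 67. Length and level were not tested, and their part in the choice of the genes was not tested.

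The 160 loci lay on 103 scaffolds, with 11 on CI01000030, 8 on CI01000039 and 5 on CI01000113. The coordinates are those in the ids, and the sources used here do not state the genome build. Of the 160, 26 (16.2%) lay within 50 kb of another of the genes, in 9 runs, and no such share over all loci is given. When loci that met the demands on level were put in order, 18 (11.2%) were next to another of the genes. Of all those loci 1.37% were next to one of the genes, and 0.863% are among the genes. With 20 kb in place of 50 kb the number in runs was 18, and with 100 kb it was 32. Tandem copies share sequence, so ids of 1 run may share reads.

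The longest run with no other locus between lay on CI01000039 from 4058417 over 20.9 kb, where 5 neighbouring loci, the last of them chemokine ligand 11, were all among the genes. Their differences at 3‰ were between 0.79 and 1.37 and at 6‰ between 1.19 and 1.94, and each was larger at 6‰. The locus with the largest differences (4062068 to 4062375) had 54.4, 40.01 and 17.9 FPKM in 6‰-treated symptomatic fish, against 4.14, 9.19 and 13.5 FPKM in 6‰-treated asymptomatic fish. At 3‰ it had 42.5, 47.7 and 5.67 FPKM in symptomatic fish, against 34.9, 3.76 and 3.801 FPKM in asymptomatic fish, and control fish had 7.94, 9.46 and 13.7 FPKM. In all 5 loci, 3‰-treated symptomatic replicate 3 and 3‰-treated asymptomatic replicate 1 were apart from their groups, the symptomatic fish low and the asymptomatic one high. The locus before them is chemokine ligand 20a, which is not among the genes, with differences of 0.62 at 3‰ and 0.49 at 6‰. Farther along CI01000039, from 6179859 to 6241511, lay 3 more of the genes with chemokine ligand 20b in their midst. The first of these (6179859 to 6180838) had 22.7, 350 and 235 FPKM in 6‰-treated symptomatic fish, against 14.3, 9.03 and 19.7 FPKM in 6‰-treated asymptomatic fish, a difference of 3.09, while at 3‰ the difference was 0.74.

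On CI01000113, from 254945 to 333023, 5 of 12 ids were among the genes, 3 of them with the highest mean FPKM of all 197 (2045, 1904 and 1843). Their differences were 2.28 to 2.65 at 3‰ and 0.69 to 1.14 at 6‰, so that each was larger at 3‰. The locus at 326077 to 326875 had 3734, 1717 and 9695 FPKM in 3‰-treated symptomatic fish, against 260, 921 and 1081 FPKM in 3‰-treated asymptomatic fish. At 6‰ the values were 3167, 1235 and 967 FPKM in symptomatic fish, against 596, 899 and 657 FPKM in asymptomatic fish, and control fish had 1900, 1084 and 651.7 FPKM. No group overlapped within a salinity at this locus, and the control fish overlapped with each treated group at both salinities. Of the ids between, those at 256900 (3.07 at 3‰ and 0.47 at 6‰) and 285871 (3.27 and 0.56) missed the threshold at 6‰ alone, as did that at 301490 with the opposite sign there (1.76 and -0.16). The id at 287299 was lower with symptoms at both (-0.28 and -0.43), and the other 3 ids did not meet the demands on level. The fourth gene by mean FPKM was CI01000388_00071304_00072471, 1 of 3 of the genes on that scaffold between 25457 and 114722. It had 673, 5326 and 279 FPKM in 3‰-treated symptomatic fish, against 1022, 28.5 and 4639 FPKM in 3‰-treated asymptomatic fish. At 6‰ it had 533, 51.9 and 13.7 FPKM in symptomatic fish, against 39.8, 44.9 and 27.8 FPKM in asymptomatic fish, and the groups overlapped at both salinities. Its difference at 6‰ was 0.98 with all fish and -0.44 without replicate 1. The fifth, CI01000140_01396774_01397424, had 1260, 1210 and 427 FPKM in 6‰-treated symptomatic fish, against 212, 593 and 403 FPKM in 6‰-treated asymptomatic fish. Pairs of neighbours were also IFNγ 2a with the locus before it and Granzyme B(G,H) with duodenase-1-like. So were the id of chemokine ligand 11 on CI01000504 with the locus before it, and loci on CI01000219. On CI01000001, 2 of the genes lay within 50 kb of each other, with other loci between them. On CI01000219 the neighbours had nearly equal mean FPKM (153 and 149) and differences of 1.35 and 1.56 at 3‰ and of 1.04 and 1.15 at 6‰.

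**Figure D4:**
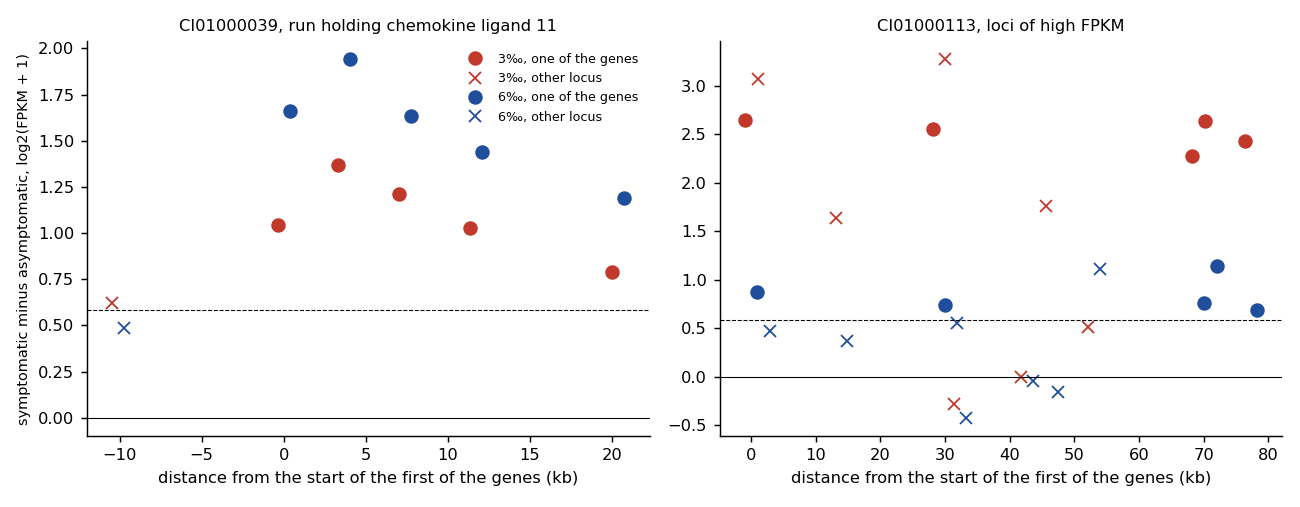
Difference between symptomatic and asymptomatic fish on the log2(FPKM + 1) scale at 3‰ (red) and 6‰ (blue), by distance in kb from the first of the genes, on CI01000039 (left) and CI01000113 (right), where circles are loci among the 197 genes and crosses are other loci of the files, with red set slightly left and blue slightly right of the true distance. All 5 blue circles at left lie above the red circle of the same locus, and all 5 at right lie below it.

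Control fish had neither salt nor symptoms, and their level was set beside both states. The mean of control fish lay between the asymptomatic and the symptomatic mean, each taken over both salinities, in 104 of the 197 genes. It was below both in 75 and above both in 18. It was nearer to the asymptomatic mean in 135. Without control replicate 3 it lay between them in 86 genes and below both in 88, so the order of these counts turned. With any other single fish left out it lay between them in 95 to 120 genes and below both in fewer. No share over all ids is given for these counts. The median of control minus asymptomatic fish was 0.20, against -0.09 over the ids that met the demands on level, and of control minus symptomatic fish -0.77, against -0.03. All 3 symptomatic fish lay above all 3 control fish at 3‰ in 81 genes (41.1%, against 9.55%), at 6‰ in 56 (28.4%, against 6.92%) and at both in 36 (18.3%, against 3.23%). All 3 asymptomatic fish lay below all 3 control fish at 3‰ in 27 genes (13.7%, against 7.11%), at 6‰ in 43 (21.8%, against 10.2%) and at both in 18 (9.14%, against 3.63%). They lay above all control fish in 12 genes at 3‰ (6.09%, against 14.9%) and in 4 at 6‰ (2.03%, against 19.1%). The same control fish enter each of these counts, and a clause of the rule used them. The rule also chose genes with high symptomatic and low asymptomatic fish, so these counts and medians follow in part from that choice. They are descriptions, and nothing about control fish is read from them.

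Salinity itself was compared in the same genes as the mean of both 6‰ groups minus the mean of both 3‰ groups. As a contrast of group means it is orthogonal to the differences within a salinity, but the choice of the genes is not independent of it. The clause on asymptomatic fish at 6‰ touches it and removed 7 ids, and a gene low at 6‰ meets the rule where 6‰-treated symptomatic replicate 1 alone is at the level of 3‰-treated fish. The shares below are therefore given beside the background as descriptions, and nothing about the genes as a set is read from them. Fish at 3‰ and at 6‰ were in different water, so salinity and tank cannot be told apart in this contrast. The paper also describes the symptoms as slighter at 6‰, so salinity and severity cannot be told apart either. Its p in limma took fish, and not tanks, as replicates. With limma on log2(FPKM + 1), 34 of the 197 genes had a fold change of at least 1.5 and an unadjusted p under 0.05 (17.3%, against 3.64% of the 24647 ids tested). Of these, 30 were lower at 6‰ (15.2%, against 1.69%) and 4 were higher (2.03%, against 1.94%). After Benjamini-Hochberg adjustment over all ids none of the 197 passed in limma, with a lowest adjusted p of 0.182, while 44 had an unadjusted p under 0.05 (9.81% of all ids did), and over all ids 3 passed the adjusted threshold (0.0122%). The median of the 197 differences was -0.18, against -0.002 over all ids tested, and 131 of the 197 (66.5%, against 50.4%) were below 0. Without 6‰-treated symptomatic replicate 1 the count of 34 became 56 (6.29% of all ids passed then), and 16 of the 197 genes, all lower at 6‰, and 270 of all ids had an adjusted p under 0.05 in limma. The genes had been chosen with that fish included, so these calls too are descriptions. Leaving out any other single fish gave no adjusted call among the 197. The larger SD of these genes within groups, given above, stands beside these shares, and its part in them was not tested.

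**Figure D5:**
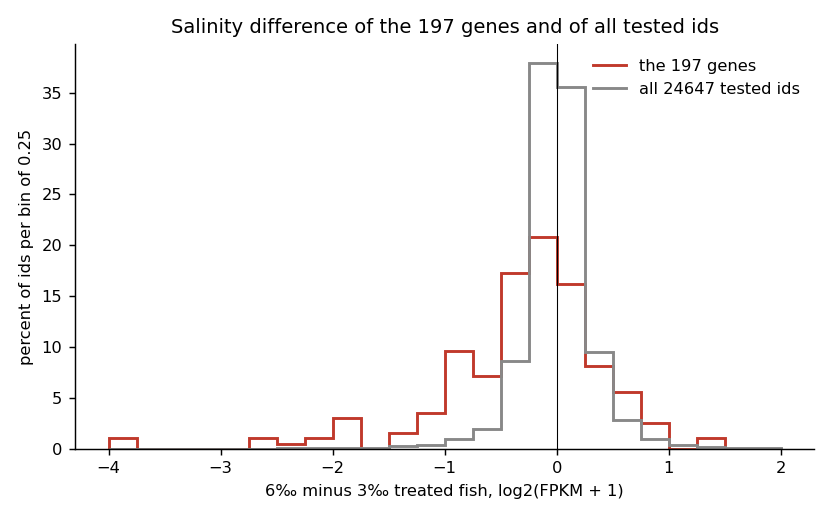
Percent of ids in each bin of 0.25 of the difference between 6‰-treated and 3‰-treated fish on the log2(FPKM + 1) scale, for the 197 genes (red) and for all 24647 ids tested (grey, with values beyond the axis put in the end bins). The red line is spread farther to the left, with 30 genes lower at 6‰ past the threshold and 4 higher.

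The lowest p were in calpain-2 catalytic subunit-like protein and GLIPR2-like. Calpain-2 catalytic subunit-like protein was lower at 6‰ by a log2 difference of -2.08 (SE 0.41, unadjusted p = 0.000237, adjusted p = 0.182 in limma). GLIPR2-like had -3.76 (SE 0.75, unadjusted p = 0.000249, adjusted p = 0.182 in limma), with the 3 asymptomatic fish at 6‰ between 8.01 and 9.16 FPKM, against 45.9 to 217 FPKM at 3‰. Next came newGene_856 with -1.79 (SE 0.36), CI01000059_01253451_01254823 with -1.93 (SE 0.39) and CI01045635_00000947_00005473 with -2.64 (SE 0.56), with adjusted p between 0.182 and 0.190 in limma. The last of them had 32.7, 1.51 and 8.48 FPKM in 6‰-treated symptomatic fish, against 26.1, 98.8 and 71.2 FPKM in 3‰-treated symptomatic fish. Its asymptomatic fish had 1.14, 4.87 and 0.287 FPKM at 6‰, against 18.1, 17.0 and 10.3 FPKM at 3‰, and control fish had 55.9, 58.1 and 59.5 FPKM. Without 6‰-treated symptomatic replicate 1 the adjusted p of all 5 were under 0.05 in limma, from 0.000517 in GLIPR2-like (-4.60) and 0.000679 in calpain-2 catalytic subunit-like protein (-2.53) to 0.0108 in CI01045635_00000947_00005473 (-3.10). The genes were chosen with that fish included, so these p are descriptions. Without it the symptom difference at 6‰ was 0.03 in GLIPR2-like, -0.06 in calpain-2 catalytic subunit-like protein, 0.32 in newGene_856 and 0.54 in CI01000059_01253451_01254823. These are all under the threshold of the rule, while CI01045635_00000947_00005473, at 0.95, is not. In all 5 genes the mean of control fish was above that of 3‰-treated asymptomatic fish.

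Of the 23 named genes 11 passed the unadjusted threshold, 9 lower and 2 higher at 6‰, beside 3.64% of all ids tested. However, the study had chosen named genes on these libraries, and among the 16 proteases it named 15 passed. Lower were both interleukin-4/13 genes (-1.91, SE 0.53, unadjusted p = 0.00343 in limma for A, and -1.41, SE 0.34, unadjusted p = 0.00128 for B), both IL8 ids (-0.94 and -0.82), Granzyme B(G,H) (-1.17), Granzyme-like protein 1 (-2.49), duodenase-1-like (-1.91), calpain-2 catalytic subunit-like protein and GLIPR2-like. The adjusted p of these genes ran from 0.182 to 0.451 in limma. Higher were matrix metalloproteinase-19-like (0.75, SE 0.33, unadjusted p = 0.0431) and the id of chemokine ligand 11 on CI01000504 (0.89, SE 0.41, unadjusted p = 0.0479), with adjusted p of 0.488 and 0.503 in limma. The other 2 that were higher have no name, CI01000321_03186100_03187507 (0.62) and newGene_10561 (0.94).

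Among the 30 genes lower at 6‰, 6‰-treated symptomatic replicate 1 was the highest of the 6 fish at 6‰ in 27, as it was in 112 of the 197. The mean of control fish was above that of 6‰-treated asymptomatic fish in 28 of the 30, while it was above the mean of 3‰-treated asymptomatic fish in 14. All control fish lay above all 6‰-treated asymptomatic fish in 17, beside 21.8% of the 197 genes and 10.2% of all ids that met the demands on level. The 30 were picked as lower at 6‰, so nothing is read from these counts. Without 6‰-treated symptomatic replicate 1, 11 of the 30 still met both differences of the rule, against 118 of the other 167 genes. In 5 of the 30 this replicate was the only symptomatic fish above all asymptomatic fish at 6‰, as in 17 of the 197. No share over all ids is given for the counts of this fish. This is the fish whose label could not be checked and whose library was closest to that of 3‰-treated symptomatic replicate 1. What lies behind that likeness was not tested.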

How the data were processed

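Gill RNA of 15 grass carp was sequenced with 1 library per fish. The authors deposited FPKM values for 40116 ids in 1 file per fish, and 1 line of annotation text in each file was left out. The paper's methods name TruSeq libraries and a Trinity assembly, and the extract protocol names NEBNext reagents. The aligner, the counting and the genome build behind the FPKM are not stated in the sources used here. The paper gives the clean data in Gb, in total and as a lower bound for each library. The reads per id are unknown, so no count test was used. Replicates are separate fish.

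The genes were selected by the stated rule on log2(FPKM + 1), with a pseudocount of 1. Salinity was tested with limma 3.58.1 in R 4.3.3, in 1 model over 5 groups, on the 24647 ids with a mean FPKM of at least 0.5, and tested on simulated data. A DEG had a fold change of at least 1.5 and an unadjusted p under 0.05, and Benjamini-Hochberg adjusted p were taken over all ids. Other values were computed with Python 3.11.15 and pandas 2.3.3. Symptom differences, control levels and positions carry no test, since the rule used them or since loci are not replicates. The genes and lists were chosen with earlier results of these data known. The text names the 10 genes of highest rank as a group, the 5 of highest mean FPKM, all with a name in the paper (locus ids only), the 5 of lowest p for salinity, neighbours on a scaffold, and the ids at the threshold. Alternatives were other scalings, pseudocounts, filters, samples in the fit, a replicate block, and each fish left out.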

Additional observations from a re-analysis of the deposited data

How the results depend on the processing

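The number of genes that differed by salinity, 34 in limma, was 31 to 38 with only treated fish in the fit, other filters, median-ratio or quantile scaling, pseudocounts of 0.1 and 0.01 and a replicate block. Of all ids tested 2.3% to 5.15% passed in these settings. The block gave 38 (3 higher and 35 lower at 6‰). Correlations of same-numbered fish ran from -0.281 to 0.628 over 18 pairs, of which 5 were over 0.1. The fish of another group with the best correlation had the same number in 20 of 60 cases, so numbers did not pair the fish over all groups. Between the symptomatic groups the correlation was 0.628 for replicate 1, 0.008 for replicate 2 and 0.610 for replicate 3. Whether these fish shared a batch is not stated and was not tested. With the adjusted p in limma the count was 0, both of higher and of lower genes. Leaving out 1 fish gave 24 to 56 genes, of which 2 to 9 were higher and 22 to 50 lower at 6‰, with the highest counts of all and of lower genes without 6‰-treated symptomatic replicate 1. Of all ids tested 2.61% to 6.29% passed in those fits. The count of 4 higher genes was 2 with only treated fish and 2 with no filter on low values. An alternative chosen after seeing the data, without replicate 1 of both symptomatic groups, gave 52 genes, of which 9 were higher and 43 lower. Of all ids tested 5.44% passed then. In that setting 95 of the 197 genes still met both differences of the rule. With 1 treated fish left out 129 to 185 did, and the other clauses were not applied again. With the rule applied anew, median-ratio scaling gave 200 ids, of which 191 were among the 197, quantile scaling 183, a pseudocount of 0.1 153 and of 0.01 145. The 5 genes of lowest salinity p stayed lower at 6‰ in all 24 alternatives of the fit, with adjusted p in limma of 0.000517 to 0.424, which were under 0.05 in all 5 without 6‰-treated symptomatic replicate 1. With the adjusted p (an alternative added after the values were seen), 16 of the 197 genes passed without that fish, 13 without replicate 1 of both symptomatic groups, and 0 in each other alternative. Over all ids tested 270 passed without that fish and 153 without replicate 1 of both symptomatic groups. The 197 genes had been chosen with all fish included. The reads per id are unknown, so low FPKM values carry an unknown counting error.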
